A study of Homo sapiens with 4 samples.

Results

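The response to 4 h of niclosamide was read in the genes for which the array offers an internal check, that is, genes measured by at least 2 probes with a detection p under 0.01 on both the 0 h and the 4 h array. Of 18665 gene symbols on the array, 9222 had at least 1 probe detected on both arrays and 2114 had at least 2, covered by 4617 probes. The cells were CP70sps, a sphere-forming population picked out of Cp70 ovarian cancer cells because it excludes a Hoechst dye. They are labelled as ovarian tumour-initiating cells and were grown without serum in low-attachment plates with insulin, albumin, basic FGF and EGF. All arrays belong to 1 course of 3 µM niclosamide, sampled at 0, 2, 4 and 6 h with 1 array per time, and the 0 h array is the untreated reference. No array here comes from cells kept for 4 h without the drug, so time in culture and drug cannot be told apart. A single array per time allows no replicate check, no error over samples and no p-value, so precision is limited by how few arrays there are, and differences are given probe by probe.

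Niclosamide is an anthelmintic that carries protons across membranes and so uncouples mitochondrial respiration from ATP synthesis, and it has also been studied as an inhibitor of Wnt, STAT3, Notch and mTORC1 signalling. Genes of G2 and mitosis are expressed in a wave late in the cell cycle, and many of their promoters hold CCAAT boxes, bound by NF-Y, and a TTTGAA-type element near the start site, bound by the MuvB complex with B-MYB and FOXM1 or, in resting cells, as the repressive DREAM complex. Hypoxia-inducible factor (HIF) is a transcription factor whose alpha subunit is destroyed while oxygen is available, and it drives genes of angiogenesis, glycolysis and pH control.

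The labelled cell type was compared with its markers. Of 13 markers of ovarian epithelium and tumour-initiating cells, 4 were detected on both arrays, namely EPCAM, KRT18, KRT19 and ALDH1A1, while CD44, KIT, PROM1, ABCG2, KRT7, KRT8, PAX8, WT1 and MUC16 were not detected on either. None of the leukocyte, endothelial or erythroid markers fixed for this check was detected at 0 h or 4 h. Of 3 fibroblast markers, 2 were detected (COL1A2 and DCN, with COL1A1 not detected). CD68, from a separate list of leukocyte markers, was detected on both arrays by 3 probes. Detected probes made up 28.3% of the 48803 probes at 0 h and 29.6% at 4 h.

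After 4 h, genes of G2 and mitosis were higher than at 0 h, with KIF11 the mitotic gene past 1.5-fold on every probe. HIF targets, among them VEGFA and CXCR4, cytosolic ribosomal protein genes and the histone genes H2AC18 and H2BC5 were lower. The differences were small. No gene was 2-fold higher or lower on every probe, 11 genes were at least 1.5-fold higher on every probe (0.52% of 2114) and 12 were at least 1.5-fold lower (0.568%). Every probe lay above 0 in 690 genes (32.6%) and below 0 in 589 (27.9%), and in the other 835 genes the probes fell on both sides.

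Promoter sequences of 5 genes are shown because CCAAT boxes occur in mitotic genes, mostly higher, and in the lower histone genes H2AC18 and H2BC5. The sequences are the 150 bases before the start site from RefSeq (GRCh38.p14), written 5′ to 3′ on the gene's strand. Each CCAAT or TTTGAA, on either strand, is in capitals. KIF11 (chr10:92592980-92593129, plus strand) and CENPA (chr2:26785906-26786055, plus strand) were higher at 4 h on every probe, and CKS1B (chr1:154974531-154974680, plus strand) is a mitotic gene that was lower. H2AC18 (chr1:149842751-149842900, minus strand) and H2BC5 (chr6:26157971-26158120, plus strand) are the histone genes counted as lower.
KIF11: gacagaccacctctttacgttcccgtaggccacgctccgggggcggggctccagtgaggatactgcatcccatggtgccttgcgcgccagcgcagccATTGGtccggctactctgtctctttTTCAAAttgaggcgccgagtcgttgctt
CENPA: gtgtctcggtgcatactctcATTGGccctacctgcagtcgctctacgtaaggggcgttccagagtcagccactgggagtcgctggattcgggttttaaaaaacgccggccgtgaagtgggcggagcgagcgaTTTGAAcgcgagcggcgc
CKS1B: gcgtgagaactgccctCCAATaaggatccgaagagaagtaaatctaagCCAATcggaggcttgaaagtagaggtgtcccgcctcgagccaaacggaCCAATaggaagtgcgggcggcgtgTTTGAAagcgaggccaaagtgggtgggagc
H2AC18: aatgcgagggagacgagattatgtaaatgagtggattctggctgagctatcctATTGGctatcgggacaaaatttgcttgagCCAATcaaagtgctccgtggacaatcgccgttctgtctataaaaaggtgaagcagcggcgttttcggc
H2BC5: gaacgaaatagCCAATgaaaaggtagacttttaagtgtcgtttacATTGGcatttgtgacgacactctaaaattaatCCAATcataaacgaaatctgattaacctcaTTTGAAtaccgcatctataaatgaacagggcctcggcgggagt

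Motifs were counted on both strands in windows from 250 bases before to 50 after the start. Of the 26 measured mitotic genes, 21 had a promoter in the RefSeq table, and 8 of those (38.1%) held both CCAAT and TTTGAA, against 6.08% of all 27305 promoters and 4.09% of the 1784 promoters found for the 2114 genes. CCAAT, with or without TTTGAA, was in 14 of the 21 (66.7%), in 35.7% of all promoters and in 37.6% of the 1784. TTTGAA was in 9 of the 21 (42.9%), in 15.4% of all promoters and in 9.70% of the 1784. Among the mitotic genes higher on every probe, 5 of 14 (35.7%) held both, so the pair did not set them apart from the mitotic genes as a whole. CKS1B, which was lower, carries both, as does the printed stretch of the lower histone gene H2BC5. TTTGAA was not counted over the histone list. KIF11 has CCAAT on the minus strand beginning 53 bases before the start and TTTGAA on the minus strand 28 bases before it. The HIF core ACGTG, whose matches on the 2 strands overlap in CACGTG, was in 3 of 8 HIF target promoters (37.5%), namely ANGPTL4, AK4 and PLOD2, in 21.6% of all promoters and in 29.3% of the 1784. The amino acid response element TGATGNAA was found in 1 of 5 promoters of stress response genes, that of ASNS, in 3.67% of all promoters and in 1.46% of the 1784. A match describes letters in a window and is not a measured binding site.

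Probes of 1 gene often pointed different ways. Every probe had the same sign in 1279 of the 2114 genes (60.5%). The share was 63.6% among the 1771 genes with 2 probes and 44.3% among the 343 genes with more. A shared sign on every probe is harder to reach with more probes, so these shares cannot be set against each other. Genes were also split into quartiles by the log2 level of their dimmest probe. The share was 52.0% in the lowest quartile, where that level did not exceed 7.10, and 68.2% in the highest, above 9.42. The gap between the lowest and highest probe of a gene had a median of 0.24 and a 90th percentile of 0.67 on the log2 scale, against a robust standard deviation of 0.26 for the mean differences over genes. Probes of 1 gene share the array and its RNA, so their match is a check of the probe and not a biological replicate.

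**Figure D1:**
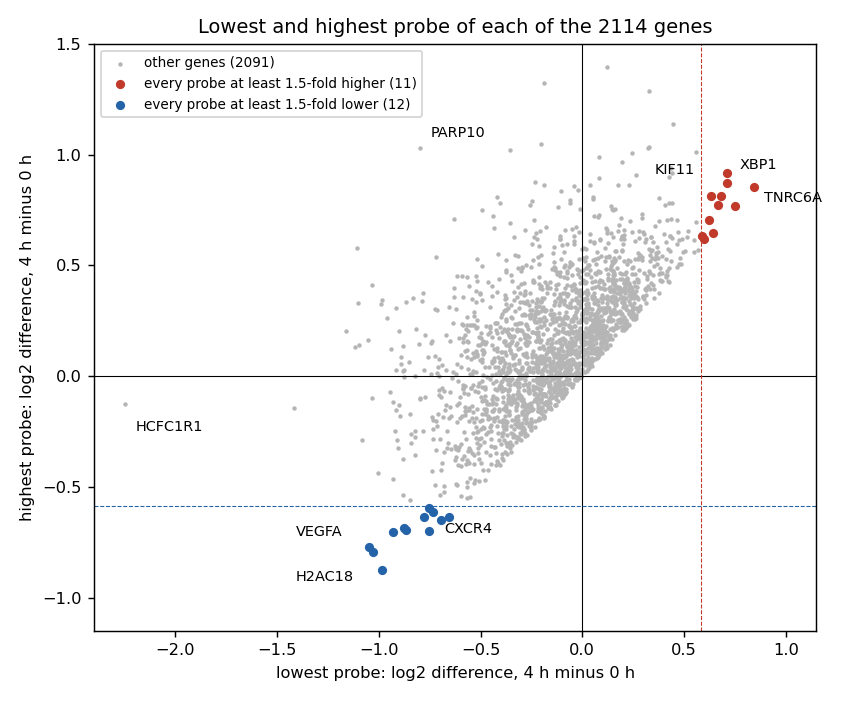
Each point is 1 of the 2114 genes, with the log2 difference (4 h minus 0 h) of its lowest probe on the horizontal axis and of its highest probe on the vertical axis. The 11 genes past 1.5-fold higher on every probe lie to the right of the vertical dashed line, the 12 lower ones lie under the horizontal dashed line, and the upper left quadrant holds the 835 genes whose probes fall on both sides of 0.

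Many differences depended on which probe was read. When each gene was represented by its brightest probe alone, 82 genes were at least 1.5-fold higher and 73 lower. Another probe of the same gene had the opposite sign in 24 of the 82 and in 30 of the 73. HCFC1R1, which encodes a regulator of the host cell factor HCFC1, had the lowest mean difference, -1.19, yet its probes read -2.25 and -0.13. PARP10, the gene of a mono-ADP-ribosyltransferase, read -0.80 on 1 probe and 1.03 on another, and FOXRED2 read -1.11 and 0.58. TNFRSF10B, which encodes the TRAIL death receptor DR5, read -1.41 and -0.14. For these genes the array gives no single value.

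KIF11 encodes the kinesin that pushes spindle poles apart. Its probes read log2 levels of 9.33 and 9.12 at 0 h, 9.02 and 9.30 at 2 h, 9.96 and 9.93 at 4 h, and 9.31 and 9.49 at 6 h. Both probes were highest at 4 h, by 0.63 and 0.81 over 0 h, a mean of 1.65-fold. At 4 h they were also higher than at 2 h, by 0.63 and 0.95. AURKA, the gene of the mitotic kinase Aurora A, read 10.50 and 10.38 at 0 h, 10.59 and 10.41 at 2 h, 11.04 and 10.86 at 4 h, and 10.89 and 10.60 at 6 h. It too was highest at 4 h on both probes, at 1.42-fold over 0 h in the mean, short of the 1.5-fold line.

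Among the regulators of the G2/M transition, FOXM1 and PKMYT1 were higher, and CDK1 was mixed. FOXM1, the transcription factor of the mitotic wave, differed by 0.61 and 0.55, and its mean was already 0.49 above 0 h at 2 h and 0.42 above at 6 h. PKMYT1, the kinase that holds CDK1 inactive before mitosis, differed by 1.01 and 0.56 at 4 h, with means of 0.78 at 2 h and 0.99 at 6 h. CDC25C, the phosphatase that activates CDK1, had a mean of 0.25 over probes between 0.08 and 0.41. CDK1 itself lay at -0.05, and at 0.12 when arrays were scaled to 1 median. MELK, a mitotic kinase, had a mean of 0.44, and NEK2, a kinase of the centrosome, 0.26. The means of FOXM1, PKMYT1 and AURKA were thus above 0 h on each of the 3 arrays after drug, while that of KIF11 was -0.06 at 2 h. The means of KIF11, AURKA and FOXM1 were highest at 4 h, and that of PKMYT1 at 6 h.

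The other mitotic genes completed the group. Over the 26 measured members, 18 were higher on every probe, 3 lower (PTTG1, CDC25A and CKS1B) and 5 mixed, against 32.6% higher and 27.9% lower over all genes. With arrays scaled to 1 median, 21 were higher and CKS1B alone was lower on every probe, against 50.1% higher and 14.6% lower over all genes under that scaling. Their median difference was 0.25, and that of all genes was 0.0084. Centromere and chromatid genes lay between 0.14 and 0.29: CENPA, the centromeric histone, at 0.29, SGO1, the guardian of cohesion, at 0.27, SMC2, a condensin subunit, at 0.27 and NUSAP1 at 0.14. Microtubule-associated CKAP5 stood at 0.27 and CKAP2 at 0.46. CKS1B, which encodes a CDK-binding subunit, was lower at -0.19, and PTTG1, the gene of securin, at -0.11. The median of the list was -0.10 at 2 h and -0.04 at 6 h, each against 0 h, so the median stood above 0 h on the 4 h array alone of the 3 arrays after drug. The step from 2 h to 4 h had a median of 0.36, and that from 4 h to 6 h -0.32, both of which use the 4 h array.

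Genes of G1/S and DNA replication showed the same direction with smaller values. Of 16 measured, 9 were higher on every probe and 2 lower, against 32.6% higher and 27.9% lower over all genes. The list median was 0.10. With arrays scaled to 1 median 10 were higher and 2 lower, with a median of 0.24. The median of all genes was then 0.159, with 50.1% higher on every probe and 14.6% lower. Relative to all genes, the list median was 0.095 before and 0.085 under that scaling. MCM3, a subunit of the replicative helicase, was higher by 0.21 and 0.27, and FEN1, the flap endonuclease, by 0.28 and 0.16. CCNE1, the gene of cyclin E1, was lower by -0.31 and -0.22, and RFC2, a clamp-loader subunit, by -0.36 and -0.53. None of the 16 reached 1.5-fold on every probe.

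**Figure D2:**
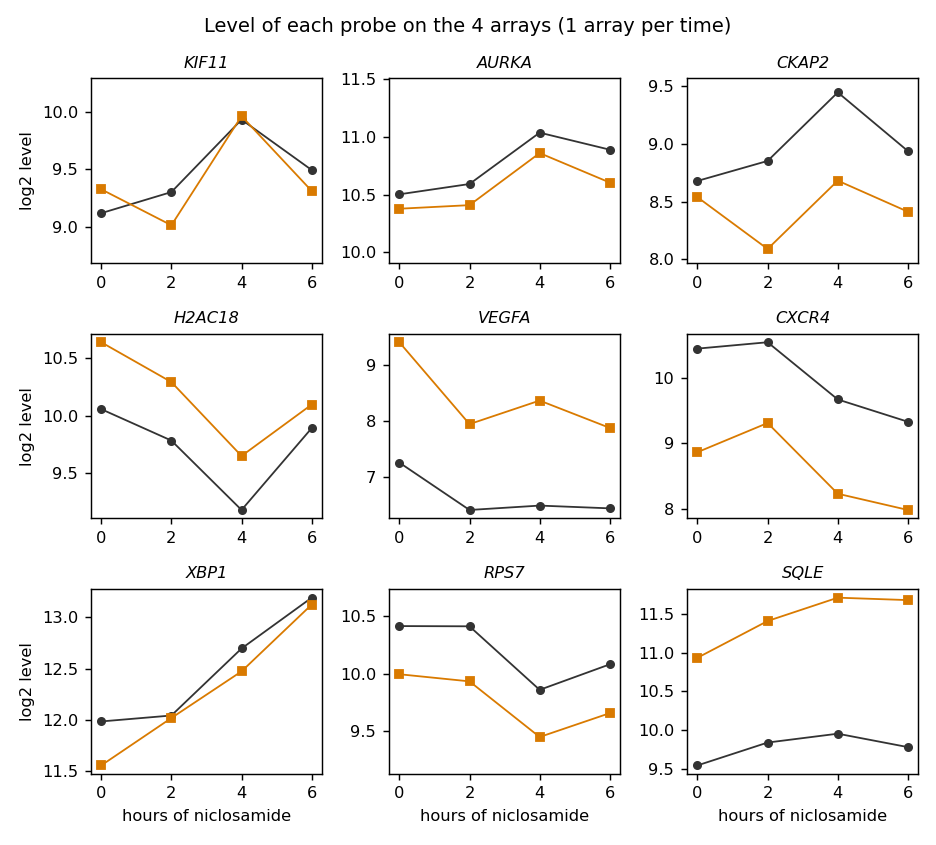
Log2 level of each detected probe (1 line per probe) at 0, 2, 4 and 6 h for 9 genes, with 1 array per time and no error bars. KIF11 and AURKA peak at 4 h on both probes, H2AC18 and RPS7 are lowest at 4 h, VEGFA is lower from 2 h on, CXCR4 is lower at 4 and 6 h, and XBP1 is higher at each later time.

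The 5 measured histone genes did not differ in 1 direction. H2AC18, a replication-dependent H2A gene, read 10.64 and 10.06 at 0 h, 10.29 and 9.79 at 2 h, 9.65 and 9.18 at 4 h, and 10.10 and 9.89 at 6 h. Both probes were lowest at 4 h, by -0.99 and -0.87 against 0 h, a mean of 1.91-fold lower. H2BC5, an H2B gene, read 10.73 and 9.61 at 0 h, 10.48 and 9.50 at 2 h, 10.02 and 8.68 at 4 h, and 9.88 and 8.76 at 6 h, and was 1.76-fold lower at 4 h in the mean. H2AX, the variant phosphorylated at DNA breaks, was instead higher, by 0.62 and 0.49. The replacement variants MACROH2A1 and H3-3A were mixed, with means of 0.03 and -0.06, and H3-3A was lower on both probes when arrays were scaled to 1 median. The H2A and H2B genes have near-identical copies whose transcripts the probes may not separate, so the assignment to these symbols is uncertain.

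HIF targets were lower. None of the 11 measured was higher on every probe and 8 were lower, with a median of -0.24. With arrays scaled to 1 median the 8 became 5, as ANGPTL4, AK4 and PLOD2 turned mixed, while the share lower on every probe over all genes went from 27.9% to 14.6%. VEGFA, which encodes the main angiogenic growth factor, read 9.42 and 7.25 at 0 h, 7.94 and 6.40 at 2 h, 8.37 and 6.48 at 4 h, and 7.88 and 6.43 at 6 h. All values after drug lay under those at 0 h, and the 4 h values, -1.05 and -0.77 against 0 h, were the highest of the 3. CXCR4, the receptor of the chemokine CXCL12, read 10.45 and 8.87 at 0 h, 10.55 and 9.31 at 2 h, 9.67 and 8.23 at 4 h, and 9.33 and 7.98 at 6 h. In CXCR4 the 2 h array was the highest, and the values at 4 h were lower than at 0 h, by -0.78 and -0.64.

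The other HIF targets were lower on every probe or mixed. CA12, a carbonic anhydrase of the cell surface, was lower by -0.54 and -0.70, and PFKFB3, which makes the activator of phosphofructokinase, by -0.50 and -0.57. MXI1, an antagonist of MYC, had a mean of -0.43. ANGPTL4 and AK4 were lower on every probe with means of -0.23 and -0.24, and BNIP3L, P4HA2 and ANKZF1 were mixed. Of the 7 genes of glycolysis and lactate export, 1 was higher on every probe (PKM, by 0.54, 0.40 and 0.29), 1 was lower (HK2, by -0.33 and -0.27) and 5 were mixed. HK2 encodes the hexokinase that starts glycolysis and PKM the pyruvate kinase that ends it.

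Ribosomal protein genes were lower by small amounts in most members. Of 32 measured, 21 were lower on every probe, 1 was higher (RPL3) and 10 were mixed. Their median was -0.18, with a range of means from -0.78 to 0.16. Over all genes 27.9% were lower on every probe and 32.6% higher. With arrays scaled to 1 median, 14.6% of all genes were lower and 50.1% higher, while 23 of the 32 were lower and 2 higher. RPL29 read 10.18 and 10.08 at 0 h, 9.67 and 9.76 at 2 h, 9.31 and 9.40 at 4 h, and 9.47 and 9.40 at 6 h, and was the ribosomal gene past 1.5-fold on every probe. RPS7 was just short of the line at -0.55 and -0.54. Ribosomal protein genes have many processed pseudogenes, so a probe may read more than 1 locus. Of 11 genes of ribosome biogenesis, 7 were lower on every probe and 2 higher, with a median of -0.15. When arrays were scaled to 1 median it became 0.01, with 4 lower and 4 higher. Relative to the median of all genes, the list median was -0.16 before and -0.15 under that scaling. NHP2, of box H/ACA snoRNPs, was lower by -0.51 and -0.47, and POLR1E, a subunit of RNA polymerase I, by -0.53 and -0.40.

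**Figure D3:**
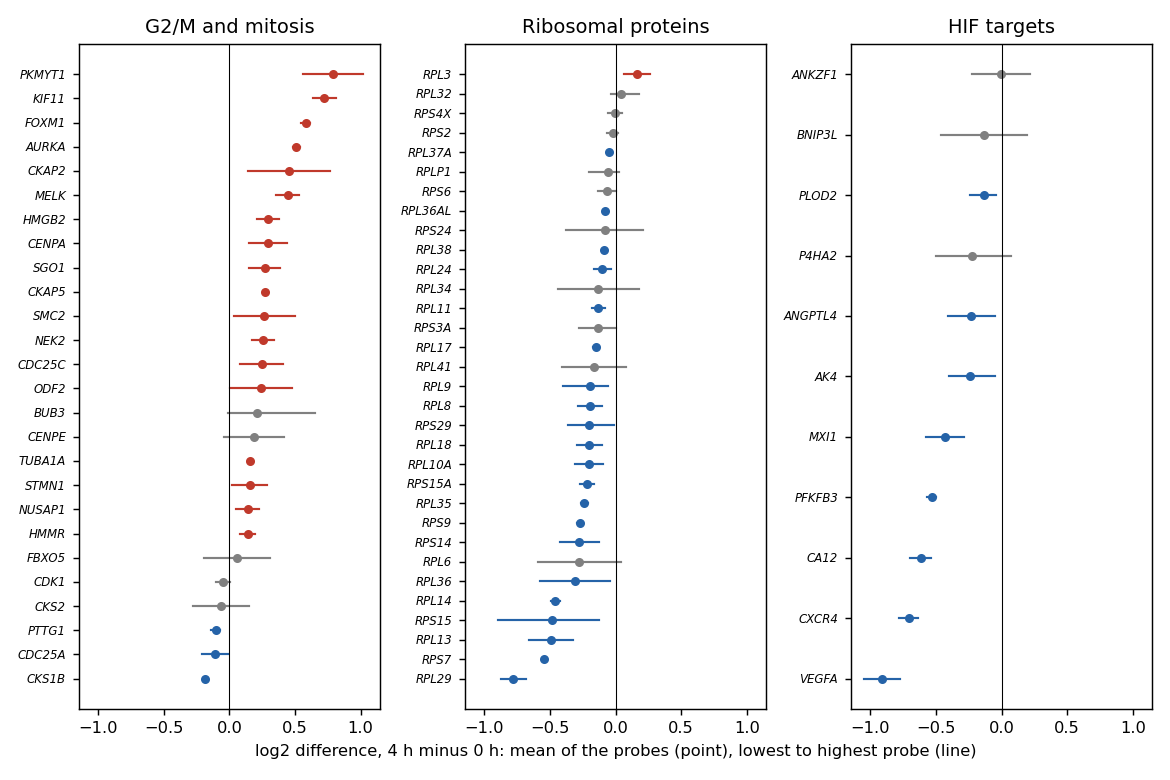
Mean log2 difference over probes (point) and lowest to highest probe (line), 4 h minus 0 h, for the measured genes of 3 lists, red where every probe is above 0, blue where every probe is below 0 and grey where they fall on both sides. The mitotic genes lie mostly to the right of 0, with 18 of 26 red. The ribosomal protein and HIF target genes lie mostly to the left, with 21 of 32 and 8 of 11 blue. Over all genes 32.6% were higher on every probe and 27.9% lower.

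XBP1, the transcription factor of the unfolded protein response, read 11.99 and 11.56 at 0 h, 12.04 and 12.02 at 2 h, 12.70 and 12.47 at 4 h, and 13.19 and 13.13 at 6 h. Its level was higher at each later time on both probes, and at 4 h it was 1.76-fold above 0 h in the mean. The list as a whole did not follow XBP1. Of 5 measured genes of the unfolded protein response, 2 were higher on every probe (XBP1 and HYOU1, an ER chaperone, at 0.34), 3 were mixed, and the median was 0.01. This share is near the 32.6% of all genes that were higher on every probe, as is that of the next list. In the integrated stress response, 3 of 8 were higher on every probe: CREBRF, a regulator of CREB3 proteins, by 0.43 and 0.78, CHKA, choline kinase, by 0.43 and 0.63, and ATF4, the central transcription factor, with a mean of 0.09. NUPR1 was lower by -0.46 and -0.18, VEGFA, which is also on this list, was the other lower member, and ASNS, asparagine synthetase, was mixed at -0.02 and 0.84.

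Each of the 5 measured genes of cholesterol synthesis and uptake, of 22 on the array, was higher on every probe, with a median of 0.35. None reached 1.5-fold on every probe. Over all genes 32.6% were higher on every probe. With arrays scaled to 1 median the 5 stayed higher, against 50.1% of all genes. SQLE, squalene epoxidase, read 10.93 and 9.54 at 0 h, 11.41 and 9.84 at 2 h, 11.71 and 9.95 at 4 h, and 11.68 and 9.78 at 6 h. Both probes were highest at 4 h. SREBF1, a transcription factor of lipid synthesis, was higher by 0.35 and 0.41, and DHCR7, the last enzyme of the pathway, by 0.27 and 0.44. INSIG1, which retains SREBP in the ER, had a mean of 0.23 and MSMO1 one of 0.12. Of the 5 genes of fatty acid synthesis and desaturation, which include SREBF1, 2 were higher on every probe, near the share over all genes, and 1 was lower, ELOVL6 at -0.24.

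Genes of mitochondrial respiration, the process that niclosamide uncouples, did not differ in 1 common direction. Of 17 nuclear-encoded subunits of oxidative phosphorylation, 9 were lower on every probe and 5 higher, with a median of -0.09, and none reached 1.5-fold on every probe. With arrays scaled to 1 median, 5 were lower and 5 higher, with a median of -0.02. Over all genes 27.9% were lower and 32.6% higher, and 14.6% and 50.1% under that scaling. Relative to the median of all genes, the list median was -0.10 before and -0.18 under that scaling. The list median thus lay below that of all genes either way, though single subunits did not all do so. Within ATP synthase the subunits diverged, as ATP5F1D was higher by 0.46 and 0.16 and ATP5MF lower by -0.38 and -0.51. Of 6 genes of the tricarboxylic acid cycle and pyruvate dehydrogenase, CS, citrate synthase, was higher on both probes, PDK3 was lower, and 4 were mixed.

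Among the pathways studied as niclosamide targets, STAT3 was lower at 4 h by -0.35, -0.26 and -0.20, and MYC by -0.23 and -0.49. The mean of STAT3 against 0 h was -0.06 at 2 h and -0.06 at 6 h. With arrays scaled to 1 median the 4 h mean of STAT3 was -0.11, over probes between -0.22 and -0.02. MYC, a target of both STAT3 and Wnt signalling, read 11.79 and 10.79 at 0 h, 11.66 and 10.34 at 2 h, 11.56 and 10.30 at 4 h, and 11.13 and 9.97 at 6 h, lower at each later time on both probes. BCL2L1, the anti-apoptotic gene of BCL-xL and another STAT3 target, was higher by 0.70 and 0.56, while the pro-apoptotic BAD and BID had means of -0.27 and -0.36. In the BCL2 family, 1 of 7 was higher on every probe, 3 were lower and 3 mixed. With arrays scaled to 1 median 3 were higher and 2 lower, as MCL1 and BAX turned higher and BID mixed. Over all genes 50.1% were higher and 14.6% lower under that scaling. CTNNB1, the gene of beta-catenin, was higher by 0.36 and 0.06, and LRP5, FZD7 and TNFRSF19 of the Wnt list were mixed. NOTCH2 was lower by -0.66 and -0.19, and HEY1, a Notch target, had a mean of -0.07, which became 0.09 when arrays were scaled to 1 median. In the Notch list of 6, 2 were higher on every probe and 2 lower, near the shares over all genes.

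In the lists of lysosomal and interferon genes the counts depended on the scaling, and so did those of all genes. Over all genes, 27.9% were lower on every probe and 32.6% higher. With arrays scaled to 1 median these shares were 14.6% and 50.1%. Of 13 genes of autophagy and lysosome, 9 were lower on every probe and 3 higher, with a median of -0.10. With arrays scaled to 1 median 5 were lower and 5 higher, with a median of -0.0065. Relative to the median of all genes, the list median was -0.11 before and -0.17 under that scaling. The lysosomal proteases had the largest values of this list, CTSB with probes at -0.92 and -0.25 and CTSL at -0.58, -0.82 and -0.35. ULK1, the kinase that starts autophagy, was lower by -0.32 and -0.12, and GAA, lysosomal alpha-glucosidase, was higher by 0.31 and 0.25. Of 6 interferon-stimulated genes, 4 were lower on every probe and none higher, with a median of -0.20. With arrays scaled to 1 median 3 were lower and OAS1 was higher, with a median of -0.097. Relative to the median of all genes, the interferon list median was -0.21 before and -0.26 under that scaling. Over the 5 genes that kept at least 2 probes detected on all 4 arrays the median was -0.077. IFI6 was lower by -0.93 and -0.47, and IFIT3 was lower by -0.20, -0.41 and -0.49. Of the 7 reference genes, 4 were higher on every probe and none lower, with a median of 0.09, and with arrays scaled to 1 median 3 were higher and GAPDH was lower.

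**Figure D4:**
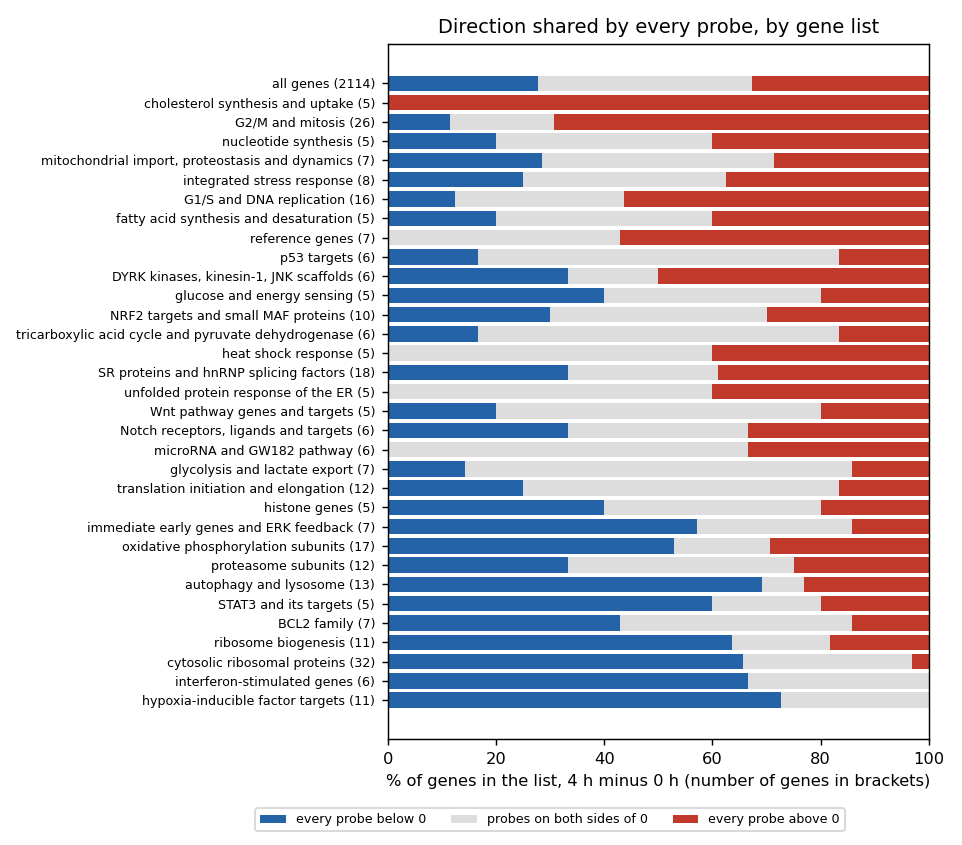
Share of the measured genes in each list (number in brackets) with every probe below 0 (blue), every probe above 0 (red) or probes on both sides of 0 (grey), 4 h minus 0 h, for lists of at least 5 measured genes, ordered by their median difference, with all 2114 genes at the top. Cholesterol synthesis and mitosis have the largest red shares, and HIF targets and autophagy and lysosome the largest blue ones.

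The remaining genes past 1.5-fold on every probe belong to no single group. TNRC6A, which encodes the GW182 scaffold of microRNA silencing, read 9.08 and 6.58 at 0 h, 10.18 and 7.55 at 2 h, 9.92 and 7.43 at 4 h, and 10.38 and 7.73 at 6 h. Its probes matched closely at 4 h, with 0.84 and 0.86, and all values after drug lay above those at 0 h. With detection p under 0.05 a further probe joined and turned TNRC6A to mixed, with a mean of 0.36, and further probes did the same to MAFG (0.28), DENND2B (0.44) and RHBDF2 (-0.26). MMADHC, a gene of intracellular vitamin B12 metabolism, was higher by 0.75 and 0.77, and APLP1, a relative of the amyloid precursor protein, by 0.87 and 0.71. SSBP3, a partner of LIM-domain factors, was higher by 0.81 and 0.68. MAFG, a small MAF partner of NRF2, was higher by 0.62 and 0.60, although of the 10 genes of its list 3 were higher on every probe and 3 lower, among them NQO1 at -0.35. With arrays scaled to 1 median, 6 of the 10 were higher and 3 lower, against 50.1% higher and 14.6% lower over all genes.

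The other 4 higher genes were PWWP2B, NPIPA1, DENND2B and LTBP4. NPIPA1 is 1 of a multi-copy family, so its 0.64 on both probes may be shared among copies. LTBP4 stood just inside the line at 0.59, and CEP152, a centriole gene, just outside at 0.57. On the lower side, TMEM44 read -0.79 and -1.03, and APBB3, an adaptor of the amyloid precursor protein, -0.70 and -0.76. IKBIP read -0.87, -0.70 and -0.69 on its 3 probes, and HEMK2, a methyltransferase gene, -0.62, -0.62 and -0.73. SLX9, RHBDF2 and ANAPC11, a subunit of the anaphase-promoting complex, were also lower, with ANAPC11 just inside the line at -0.60 and the cell-cycle inhibitor gene CDKN2A just outside at -0.56.

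**Figure D5:**
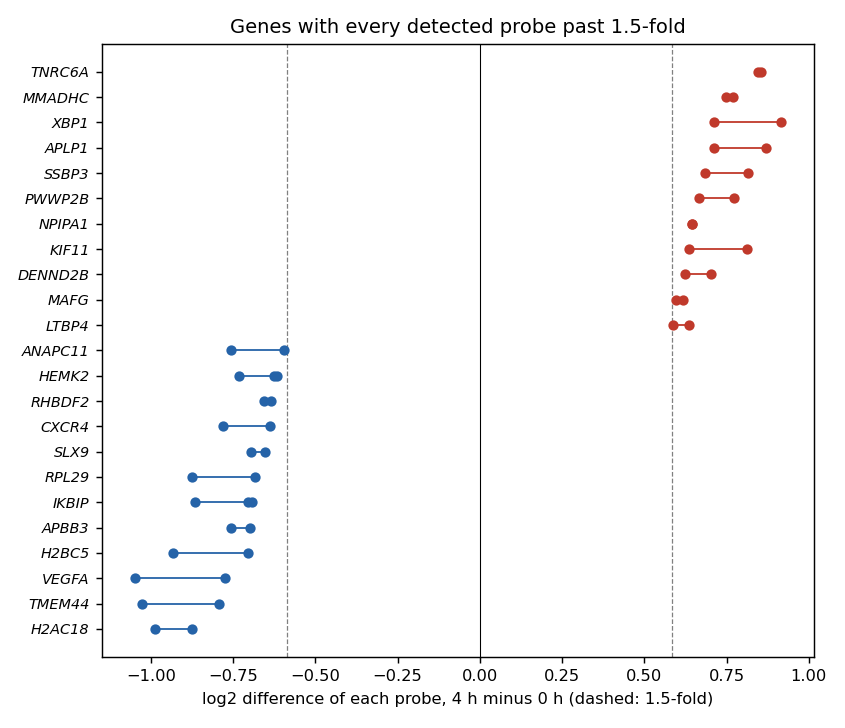
Log2 difference (4 h minus 0 h) of every detected probe of the 11 genes at least 1.5-fold higher (red) and the 12 at least 1.5-fold lower (blue), with dashed lines at 1.5-fold. The probes of TNRC6A, NPIPA1 and RHBDF2 nearly coincide, and no gene has every probe past 2-fold.

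The mean of 10 of the 11 higher genes was also above 0 h at 2 h, KIF11 being the exception at -0.06, and all 11 were above 0 h at 6 h. Of the 12 lower genes, 11 were also below 0 h at 2 h, CXCR4 being the exception at 0.27, and all 12 were below at 6 h. These comparisons share the 0 h array, so a deviation of that array would enter all of them. The difference between 6 h and 2 h uses neither the 0 h nor the 4 h array. In it, 8 of the 11 higher genes were higher on every probe and 2 lower, against 31.5% higher over all genes, and 9 of the 12 lower genes were lower on every probe and 0 higher, against 35.1% lower over all genes. The counted genes were chosen for probes that share a direction, so the shares over all genes are not a like background. All arrays were also normalized together.

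The split between higher and lower genes depended on the scaling. Setting all arrays to the same median, with no quantile normalization, moved the median of all 2114 genes from 0.0084 to 0.159 and the split from 11 higher and 12 lower to 43 higher and 3 lower, with H2AC18, TMEM44 and VEGFA the 3. Relative to the median of all genes under that scaling, the list medians were 0.24 for mitosis, 0.28 for cholesterol synthesis, -0.30 for HIF targets and -0.31 for ribosomal proteins. Under the reported processing and 7 alternatives to it that kept the rule of every probe, 8 genes passed 1.5-fold in each: APLP1, KIF11, MMADHC, NPIPA1, PWWP2B and XBP1 on the higher side, and H2AC18 and TMEM44 on the lower. VEGFA passed in 6 of these 8 and CXCR4 in 5. The dimmer VEGFA probe had a mean log2 level under 7, so that filter left VEGFA out.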

How the data were processed

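Total RNA was labelled with biotin after amplification and hybridized to human Illumina bead arrays, per the labels' protocols. The deposited intensity values are non-normalized signals per probe. BeadStudio is the tool in the submitters' processing notes, and its version and settings are not given in the sources used here. The deposited detection p-value of each probe, per the file headers, sets it against the negative controls of its array. The authors' processed intensity values differed by at most 1.48% from the raw values quantile normalized without log and served as an alternative. Here, limma 3.58.1 in R 4.3.3 corrected background by normexp, with negative controls estimated through the detection p-values, added an offset of 16, quantile normalized the 4 arrays and took log2. Gene values were formed with Python 3.11.15 and pandas 2.3.3. Of 48803 probes, 27578 had 1 gene symbol, updated to RefSeq by Entrez identifier in 27541, 13 had several and 21212 none. A gene was counted as higher or lower when every probe detected on both arrays passed 1.5-fold in 1 direction. The code for this rule was run on simulated probes with planted differences larger than any gene mean here and no array effect. That run checks the code and says nothing on how reliable the calls in these data are. No test was made, as there is 1 array per time. Named genes were the 15 largest in each direction by the probe nearest 0, up to 4 of each list with every probe on 1 side, the 5 with the widest probe gap and a few fixed genes. Other list members, counts of 5 or fewer and genes in the comparison with 2 h were named after their values were seen. The members, the 43 lists and the rules were chosen with earlier results of these data known. Alternatives were the scaling, background, offset, detection threshold, arrays normalized, low-signal filter, probe rule, fold and reference array.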

Additional observations from a re-analysis of the deposited data

How the results depend on the processing

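No paired analysis was possible because there is 1 array per time. The counts of genes past 1.5-fold on every probe were 11 higher and 12 lower. They were 43 and 3 with median scaling, 7 and 7 with the authors' processed values and 7 and 8 with an offset of 50. They were 28 and 25 by the mean over probes, 82 and 73 by the brightest probe, and 0 and 0 at 2-fold. The 7 and 7 of the authors' values and the 7 and 8 of the larger offset were all among the 11 and 12, and both alternatives compress low signals by construction. With detection p under 0.05 the counts were 14 and 12 of 2728 genes, of which 8 and 11 were among the original ones, since a further probe made TNRC6A, MAFG, DENND2B and RHBDF2 mixed. Normalizing the 0 h and 4 h arrays alone, or requiring detection on all 4 arrays, gave 11 and 12 again, and a log2 level of at least 7 gave 9 and 11. With the 2 h array in place of the 0 h array, an alternative added after seeing the data, the counts were 3 and 12, with KIF11, CXCR4 and H2AC18 shared. The share of genes with 1 sign on every probe, 60.5%, was 64.7% with median scaling, 57.1% with detection p under 0.05 and 62.7% at a log2 level of at least 7. Of 231 list medians under alternatives, 7 moved by more than the spread used, and of 948 values of the 139 named genes 46 did, 42 of them with median scaling, while 0 called genes changed sign. The medians of mitosis, cholesterol synthesis, HIF targets and ribosomal proteins kept their direction under the 7 alternatives run on lists. The cause of the shift with median scaling was not tested. Dim probes limit the check, as every probe shared a sign in 52.0% of genes in the lowest quartile by the level of their dimmest probe.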

Other observations

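Set against the 2 h array instead of the untreated one, the 4 h array showed 3 genes at least 1.5-fold higher on every probe, all of them mitotic: KIF11 at 0.63 and 0.95, CKAP2, a microtubule-associated protein gene, at 0.59 on both probes, and FBXO5, which encodes the inhibitor EMI1 of the anaphase-promoting complex, at 0.65 and 0.75. FBXO5 was mixed against 0 h, as its mean was -0.64 at 2 h and 0.06 at 4 h. The 12 lower genes included PDGFB, a platelet-derived growth factor chain, at -1.10 and -1.07, CXCR4 at -1.08 and -0.88, PFKFB3 at -0.90 and -0.62, H2AC18 at -0.64 and -0.60, and the pro-apoptotic gene BAX at -0.76 and -0.71. BAX had a mean of 0.96 at 2 h and 0.22 at 4 h against 0 h. These genes were named after their values were seen, and the comparison shares the 4 h array with the one against 0 h.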
